A study of Mus musculus with 6 samples.

Results

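The subunits of the respiratory chain and of ATP synthase were examined in the apex of mouse hearts with and without an alpha MHC Cre transgene. The members are all probe sets (groups of probes for 1 transcript) whose only annotated gene symbol begins with Nduf followed by a, b, c, s or v and a digit, with Uqcr, with Cox4 to Cox8 or with Atp5, or is Sdha, Sdhb, Sdhc or Sdhd. These were 164 of the 45101 probe sets on the array and named 81 of its 18193 genes with a symbol of their own. After the dimmest 40% of probe sets were left out, 156 member probe sets of 79 genes were tested, among 27022 probe sets of 13062 genes in all. Among probe sets with 1 symbol, those of Ndufb4 and Cox7b2 were too dim to be tested. Their group means were 3.71 to 4.17 and 1.92 to 3.22 on the log2 scale. Ndufb4 also shares brighter probe sets with Ndufb4b and Ndufb4c, at 12.67 and 12.36 without Cre. These are not members and are described at the end. Cox7b is not analysed here.

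Each of the 6 arrays measured total RNA of 1 heart from a male mouse aged 6 to 7 weeks. All 6 animals were Fog2flox/delta, so they carried 1 floxed and 1 deleted allele of Fog2, the gene now called Zfpm2, which encodes a cofactor of GATA transcription factors. In 3 of them (aMHC_Cre 1 to 3) the transgene alpha MHC Cre was present, which makes Cre recombinase under a promoter active in cardiomyocytes, and 3 animals (no_Cre 1 to 3) had no Cre. The controls therefore kept only 1 intact copy of Fog2, and since no animal had Cre with an unfloxed gene, Cre and the loss of Fog2 cannot be told apart as sources of a difference. The question is how RNA levels in the heart differ when Cre can remove the remaining Fog2 allele in cardiomyocytes. Differences are given on the log2 scale as the mean with Cre minus the mean without.

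The respiratory chain sits in the inner mitochondrial membrane. Complexes I and II pass electrons from NADH and succinate to coenzyme Q, complex III passes them on to cytochrome c, and complex IV hands them to oxygen. Complexes I, III and IV pump protons, and complex V, the ATP synthase, uses the resulting gradient to make ATP. The heart draws most of its ATP from this system and is among the tissues with the most mitochondria. Several small subunits of complex IV exist in a form typical of heart and skeletal muscle and a form made in most tissues. The genes measured here are all nuclear, whereas complexes I, III, IV and V also need subunits encoded in mitochondrial DNA, which are not analysed here.

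The array medians lay between 5.71 and 5.81. Of the 2 Zfpm2 probe sets, 1 was lower with Cre by 0.88 and the other higher by 1.68, and without the position of their probes in the gene they do not check the deletion. The 3' minus 5' signal of Actb, which can reflect RNA quality, averaged 0.35 in the controls (SD 0.06, n = 3) and 0.27 in the hearts with Cre (SD 0.02). For Gapdh the averages were -0.11 (SD 0.03) and -0.06 (SD 0.01), a difference in the opposite direction. Their part in the results below was not tested. Over all genes, 2.04% were lower and 4.2% higher with Cre at an adjusted p under 0.05 (limma, Benjamini-Hochberg over all tested probe sets).

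Most subunit genes read slightly lower in the hearts with Cre, and Cox7a1 alone passed the test. Of the 79 genes, each represented by its brightest probe set, 69 had a mean difference below 0, which is 87.3%, against 52.3% of all tested genes. The median difference over the 79 genes was -0.08, which corresponds to 94.6% of the signal without Cre, and the median over all tested genes was -0.011. In 32 of the 79 genes all hearts with Cre read below all hearts without Cre, and in 2 genes, Ndufb5 and Ndufa4l2, all read above. The same patterns were seen in 12.9% and 13.2% of all tested genes. Only Cox7a1, 1 of 79 or 1.27%, was lower at an adjusted p under 0.05 in limma, a share below the 2.04% of all genes, and 0 were higher. At an unadjusted p under 0.05 there were 5 lower and 1 higher, against 8.47% and 10.5% of all genes.

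RNA of the apex comes from several cell types, and fewer cardiomyocytes cannot be told apart from less RNA per cardiomyocyte. Of 10 cardiomyocyte markers 6 were below 0, none passed in limma (0 lower and 0 higher at an unadjusted p under 0.05), and the median was -0.01. Their summed signal (log2) was 16.78 to 16.82 without Cre and 16.78 to 16.84 with Cre. Of 10 fibroblast markers 7 were higher with Cre, against 4.2% of all genes, with a median of 0.88, and the summed signal was 13.70 to 13.90 without Cre and 14.44 to 14.70 with Cre. Without a filter on dim probe sets 0 of the fibroblast markers passed in limma (with the filter 9 of the 10 were higher at an unadjusted p under 0.05). Their part in the lower subunit signals was not tested.

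The median level of the 79 genes was 12.87, 12.83 and 12.89 in no_Cre 1, 2 and 3 and 12.72, 12.69 and 12.80 in aMHC_Cre 1, 2 and 3. The groups did not overlap in this median, and aMHC_Cre 2 was the lowest heart. The medians per complex also separated the groups in complexes I, II and IV, but not in III and V. Complex I had 12.77, 12.68 and 12.76 without Cre against 12.58, 12.46 and 12.61 with Cre. Complex II separated only narrowly, at 12.43, 12.43 and 12.48 against 12.41, 12.41 and 12.42. Complex IV had 13.01, 13.05 and 13.14 against 12.83, 12.75 and 12.78. This level lay at the rank of Cox7a1 and so largely follows that gene, and the median of the gene differences in complex IV was -0.05. Complex III had 12.95, 12.84 and 13.01 without Cre against 12.90, 12.79 and 12.89 with Cre. Complex V had 13.08, 13.10 and 13.10 without Cre against 13.08, 13.06 and 13.11 with Cre. The differences were small beside the error that limma assigned to them. The SE had a median of 0.11 over the 79 genes and a minimum of 0.106, whereas the pooled SD between hearts of a group had a median of only 0.056, against 0.16 over all genes. This is because limma draws the variance of each probe set towards a value common to all probe sets. When that value was allowed to depend on the signal level, with robust variance settings as well, the median SE of the members was 0.062. In that fit Cox8b (adjusted p 0.0089), Sdhc (0.041), Ndufs4 (0.043) and Ndufa5 (0.046) were lower in addition to Cox7a1 (0.00034), so 5 of 79 genes were lower and 0 higher, while 3.25% of all genes were lower and 5.34% higher. With the signal-dependent value alone, 3 genes (Cox7a1, Cox8b and Sdhc) were lower and 0 higher, while 3.16% of all genes were lower and 5.26% higher. The 95% interval of the difference excluded a fall of 0.5 for 73 of the 79 genes, all but Cox7a1, Cox8b, Ndufs4, Ndufa5, Ndufb10 and Sdhc. It excluded a rise of 0.5 for 78, all but Ndufa4l2.

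**Figure D1:**
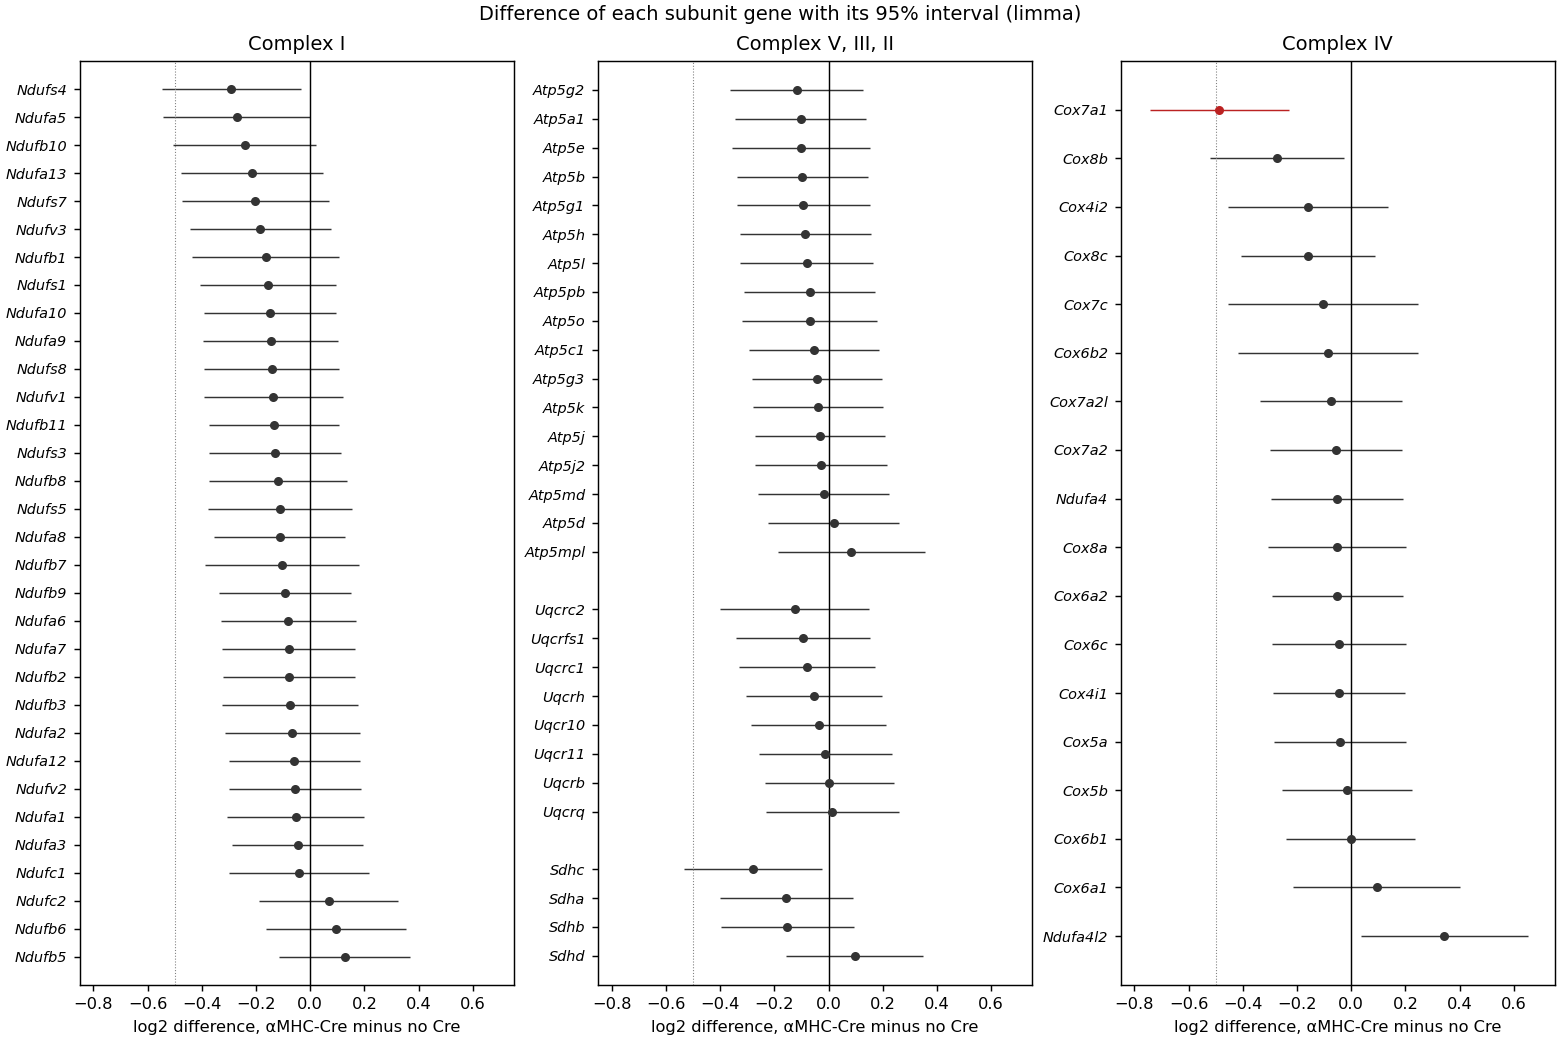
Difference of each of the 79 subunit genes, hearts with Cre minus hearts without Cre, on the log2 scale, in panels by complex with the lowest at the top of each block. Points are estimates of 3 hearts against 3 and bars are 95% intervals from limma, the dotted line marks -0.5, and only Cox7a1 (red) passed an adjusted p of 0.05. Of the 79 points, 69 lie left of 0.

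Signals of this family lay close to the upper end of the scale. In the hearts without Cre, 67 of the 79 genes had a mean over 12, against 274 of all 13062, and the array maxima were 13.97 to 14.00. The brightest probe set of Uqcrb, a small subunit of complex III, held the maximum of every array. Whether differences are compressed at such levels was not tested, so a small difference of a very bright subunit does not show an equal level of RNA. Of the 79 genes, 43 were represented by a probe set whose name ends in _a_at, _s_at or _x_at, which marks probes that can match several transcripts of a gene or, for the last 2 endings, other genes. Where a pseudogene or paralog shares these probes, its RNA cannot be told apart from that of the subunit.

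In complex IV, the muscle forms of 2 of the 3 subunits with a muscle and a ubiquitous form were lower with Cre in every heart, but only Cox7a1 passed the test. Cox7a1, the heart and skeletal muscle form of subunit VIIa, read 13.05, 13.05 and 13.22 without Cre against 12.67, 12.61 and 12.57 with Cre. The groups were well apart, and the difference was -0.49 ± 0.11 (SE; 95% interval -0.74 to -0.23; limma adjusted p 0.042), or 71.3% of the signal without Cre. The size changed little when any heart was left out (-0.52 to -0.43), but the adjusted p was then 0.069 to 0.14, and it was 0.14 without a filter on dim probe sets. Its ubiquitous partner Cox7a2 read 13.43, 13.40 and 13.44 without Cre against 13.43, 13.32 and 13.35 with Cre. These groups overlapped, and the difference was -0.06 ± 0.11 (adjusted p 0.85; 95% interval -0.30 to 0.19).

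Cox8b, the muscle form of subunit VIII, read 13.17, 13.24 and 13.27 without Cre against 12.99, 12.90 and 12.98 with Cre. All hearts with Cre were lower, with a difference of -0.27 ± 0.11 that did not pass (adjusted p 0.23; 95% interval -0.52 to -0.03). The ubiquitous Cox8a read 10.96, 11.00 and 11.01 against 10.86, 10.90 and 11.05, so that aMHC_Cre 3 was above every control heart and the groups overlapped. Cox6a2, the muscle form of subunit VIa, read 13.31, 13.39 and 13.33 without Cre against 13.28, 13.29 and 13.32 with Cre, a difference of -0.05 ± 0.11 (adjusted p 0.87). A second Cox6a2 probe set differed by -0.14, with separated groups and without passing (adjusted p 0.57). The ubiquitous partner Cox6a1 read 12.07, 11.84 and 12.02 against 12.04, 11.90 and 12.28, a difference of 0.09 ± 0.14 (adjusted p 0.80). The heart aMHC_Cre 3 alone set this sign, since without it Cox6a1 differed by -0.0093.

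**Figure D2:**
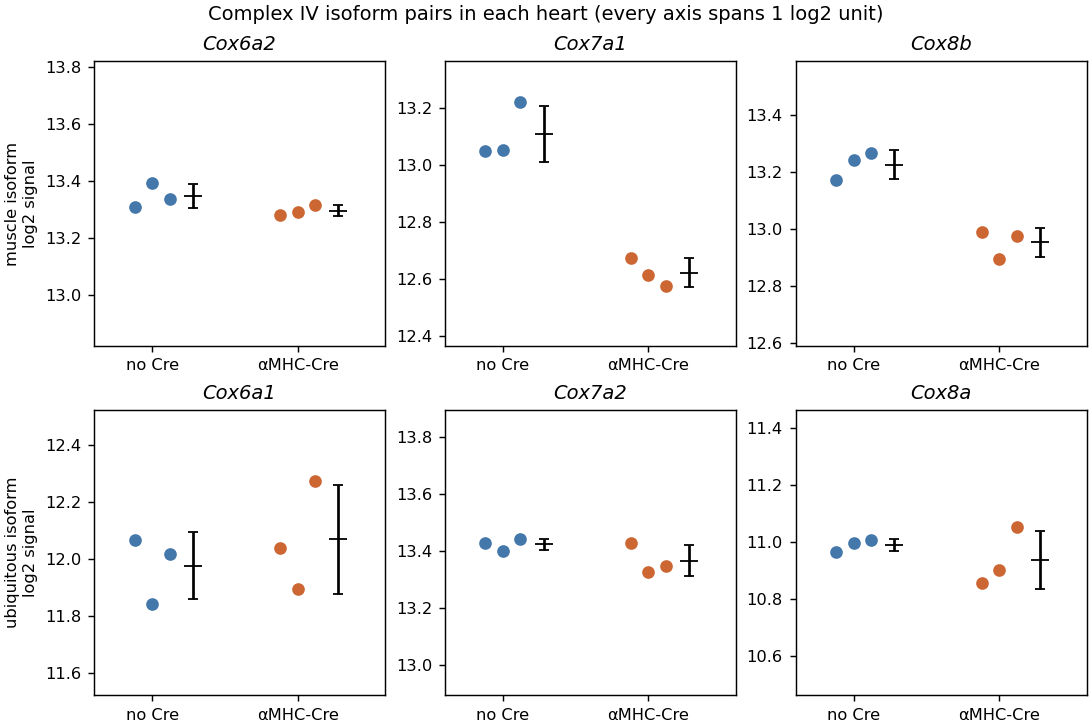
Log2 signal of the muscle form (top) and the ubiquitous form (bottom) of 3 complex IV subunits in each heart, with every axis spanning 1 log2 unit. Points are hearts and black marks are the mean and SD of 3 hearts. The hearts with Cre lie below all controls for Cox7a1 and Cox8b, by 0.49 and 0.27 on average, and overlap them for the other genes.

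The change of each muscle form relative to its partner was measured within each array. Cox7a1 minus Cox7a2 was -0.38, -0.35 and -0.22 in the controls against -0.75, -0.71 and -0.77 with Cre, a shift of -0.43. Cox8b minus Cox8a was 2.21, 2.25 and 2.26 against 2.13, 1.99 and 1.93, a shift of -0.22. In both pairs the 3 hearts with Cre lay below the 3 controls, and a two-sided exact permutation test over the 6 hearts gave p = 0.1, the smallest value that 3 against 3 allow (0.15 adjusted over the 3 pairs compared). Cox6a2 minus Cox6a1 was 1.24, 1.55 and 1.32 against 1.24, 1.39 and 1.04, a shift of -0.15 with overlapping groups (exact permutation p = 0.4, also 0.4 adjusted). It was -0.053 without aMHC_Cre 3, -0.055 without no_Cre 2 and -0.23 without aMHC_Cre 2. These shifts describe unequal change of the 2 probe sets, not their relative abundance. With other tested probe sets of the same genes, the shifts were -0.42 for Cox7a1, -0.20 for Cox8b and -0.14 to -0.24 for Cox6a2.

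The sequences before the transcription start of the pairs with separated groups are shown to compare the muscle forms with their partners. They are the 250 bases upstream of the RefSeq start in GRCm38.p6, 5′ to 3′ on the strand of the gene. They lie at chr7:30183921-30184170 (plus strand) for Cox7a1, chr9:79759854-79760103 (minus) for Cox7a2, chr7:140900447-140900696 (minus) for Cox8b and chr19:7217617-7217866 (minus) for Cox8a. Capitals mark matches, on either strand, to AGATAA or TGATAA (letters bound by GATA factors), CAGCTG (a muscle E-box), CCGGAAG (ETS factors such as Gabpa), GCATGCG (part of the Nrf1 site) and AAGGTCA (oestrogen-related receptors).
Cox7a1: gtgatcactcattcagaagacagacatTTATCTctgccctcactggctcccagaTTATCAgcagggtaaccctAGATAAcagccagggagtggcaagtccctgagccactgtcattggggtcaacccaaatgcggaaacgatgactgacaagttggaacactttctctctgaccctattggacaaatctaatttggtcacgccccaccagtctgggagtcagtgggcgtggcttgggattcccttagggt
Cox7a2: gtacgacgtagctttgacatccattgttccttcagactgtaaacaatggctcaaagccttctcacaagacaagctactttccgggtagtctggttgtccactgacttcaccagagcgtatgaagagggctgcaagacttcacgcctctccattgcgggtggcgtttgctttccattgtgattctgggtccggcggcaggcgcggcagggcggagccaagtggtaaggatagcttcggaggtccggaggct
Cox8b: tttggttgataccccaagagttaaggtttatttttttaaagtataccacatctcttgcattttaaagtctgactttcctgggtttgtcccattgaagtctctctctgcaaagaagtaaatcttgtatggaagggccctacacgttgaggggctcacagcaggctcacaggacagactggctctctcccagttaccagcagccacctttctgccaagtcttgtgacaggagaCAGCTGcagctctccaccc
Cox8a: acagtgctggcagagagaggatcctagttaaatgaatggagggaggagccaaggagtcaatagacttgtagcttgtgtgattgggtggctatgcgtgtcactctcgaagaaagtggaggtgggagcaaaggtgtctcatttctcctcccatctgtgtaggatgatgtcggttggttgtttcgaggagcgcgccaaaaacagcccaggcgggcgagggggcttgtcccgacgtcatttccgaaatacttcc
Cox7a1 had 3 matches to the GATA letters and Cox8b 1 to the E-box, and neither of their ubiquitous partners had any match. No promoter of Cox6a2 was available, and its ubiquitous partner Cox6a1 had 1 match to the ETS letters and 2 to the Nrf1 letters. Overlapping matches on the 2 strands were counted separately, so 1 Nrf1 site that reads alike on both strands counts as 2. The muscle forms shown had 4 and 1 CG dinucleotides in the window and the ubiquitous forms shown 14 and 11. The median was 14 over 71 promoters of 66 member genes and 6 over 32851 mouse promoters. At least 1 GATA match was found in 18.3% of the member promoters and 16.6% of all promoters. Among the member promoters only that of Cox7a1 had 3 or more, which 0.371% of all promoters had. As 3 is the count of Cox7a1 itself, a gene shown because of its difference, this share is no test of rarity. The ETS letters were in 16.9% of member and 6.91% of all promoters, the Nrf1 letters in 11.3% and 3.02%, the receptor letters in 7.04% and 4.08%, and the E-box in 8.45% and 13.0%. Such matches describe the letters only, and binding was not measured.

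The remaining tissue-restricted forms of complex IV were much dimmer. Ndufa4l2, a relative of the complex IV subunit Ndufa4 known as a target of hypoxia factors, read 7.21, 7.54 and 7.62 without Cre against 7.74, 7.79 and 7.88 with Cre. All hearts with Cre were above the controls, but the difference of 0.34 ± 0.14 did not pass (limma adjusted p 0.23). Ndufa4 itself differed by -0.05 ± 0.11 (adjusted p 0.87). Cox4i2, the lung-enriched form of subunit IV that is also linked to low oxygen, differed by -0.16 ± 0.13 (adjusted p 0.61), and its ubiquitous partner Cox4i1 by -0.04 ± 0.11 (0.89). The testis-enriched Cox8c and Cox6b2 differed by -0.16 and -0.09, without passing (0.52 and 0.84), and Cox6b1, the partner of the latter, by -0.0021. The sign of Cox6b1 changed with the processing, at 0.01 under quantile normalization, and that of Cox6b2 changed without aMHC_Cre 3, to 0.026.

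In the 11 genes of complex IV outside these tissue forms, the median difference was -0.045, with a range from -0.10 to 0.09. The low end was Cox7c, read from a dim probe set at 6.01 without Cre and 5.90 with Cre. Its other probe set was too dim to be tested. None of these 11 passed in limma, also at an unadjusted p under 0.05, and none separated the groups without overlap. Over all 18 genes of complex IV, Ndufa4 and Ndufa4l2 included, 16 were below 0 and the median was -0.05.

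Complex I, the NADH dehydrogenase and the largest of the complexes, had differences below 0 in most of its genes. Of 32 tested genes, 29 had a difference below 0, with a median of -0.11 and a range from -0.29 to 0.13. In 18 of them all hearts with Cre were below all controls, 56.2% against 12.9% of all tested genes, and in 1 they were above. None of the 32 passed in limma (2 lower and 0 higher at an unadjusted p under 0.05). All 6 tested core subunits, a group that includes the holders of the flavin and the iron-sulfur clusters, were below 0, with a median of -0.14, and 5 of them had separated groups. Ndufs7, which holds the last iron-sulfur cluster before coenzyme Q, read 12.87, 12.72 and 12.75 without Cre against 12.66, 12.44 and 12.64 with Cre. The other core genes differed by -0.16 (Ndufs1), -0.14 (Ndufs8 and Ndufv1), -0.13 (Ndufs3) and -0.06 (Ndufv2).

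Among the 26 accessory subunits, 23 were below 0 and the median was -0.10. Ndufs4, an accessory subunit needed for a stable complex I and mutated in Leigh syndrome, was the lowest. Its brightest probe set read 11.64, 11.58 and 11.75 without Cre against 11.44, 11.31 and 11.35 with Cre, a difference of -0.29 ± 0.11 (SE) that did not pass (adjusted p 0.22). Its middle probe set differed by -0.33 ± 0.13 (adjusted p 0.22). Its dimmest tested probe set read 7.98 in each of the controls and 7.27, 7.11 and 7.49 with Cre. This probe set fell by 0.69 ± 0.13 and passed (limma adjusted p 0.016), as 1 of 2 member probe sets of 156 that were lower, the other being that of Cox7a1, while 1.79% of all probe sets were lower. The call was lost without aMHC_Cre 1 (adjusted p 0.057), aMHC_Cre 2 (0.077) or no_Cre 1 (0.0504), and without a filter (0.11). All 3 tested probe sets thus had separated groups with lower values with Cre, and the mean of the 3 passed (-0.44, adjusted p 0.038). The remaining Ndufs4 probe set, too dim to be tested, averaged 4.75 without Cre and 4.81 with Cre.

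**Figure D3:**
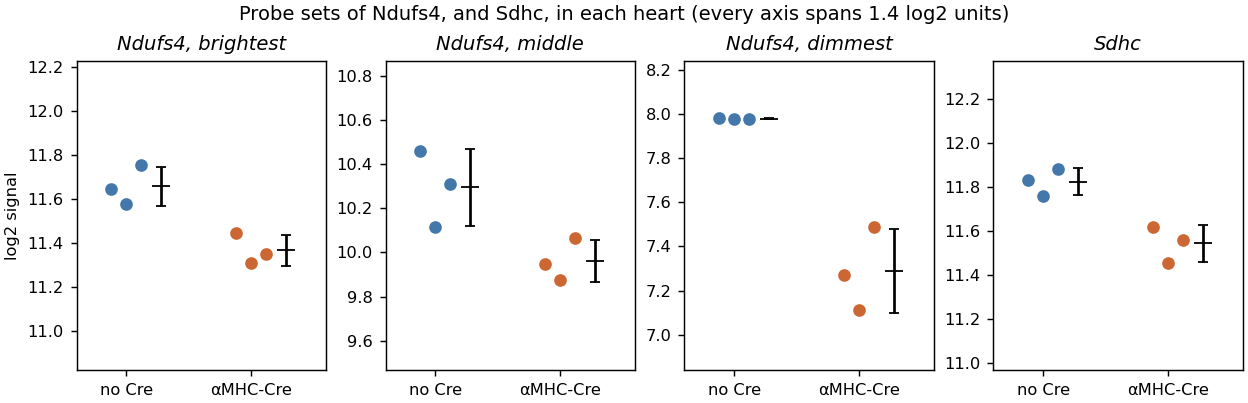
Log2 signal in each heart of the 3 tested probe sets of Ndufs4 and of Sdhc, with every axis spanning 1.4 log2 units. Points are hearts and black marks are the mean and SD of 3 hearts. The hearts with Cre lie below all controls in every panel, and only the dimmest Ndufs4 probe set passed the test (adjusted p 0.016).

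Ndufa5, an accessory subunit of the matrix arm, read 12.68, 12.46 and 12.62 without Cre against 12.25, 12.27 and 12.43 with Cre. It differed by -0.27 ± 0.12 (adjusted p 0.28), and its second probe set by -0.22. Ndufb10 and Ndufa13 followed at -0.24 and -0.21, again with separated groups and without passing. The only 3 genes of complex I above 0 were Ndufb5 at 0.13, Ndufb6 at 0.10 and Ndufc2 at 0.07. Ndufb5 read 12.89, 12.94 and 12.91 without Cre against 13.04, 13.00 and 13.09 with Cre, but its second probe set differed by -0.11 in the opposite direction. Ndufb9, the brightest gene of complex I, differed by -0.09 ± 0.11 (adjusted p 0.74).

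Complex II, the succinate dehydrogenase of the citric acid cycle, had lower values with Cre in 3 of its 4 genes, and the groups did not overlap in those 3, where 12.9% of all tested genes had all hearts with Cre below. None of the 4 passed in limma (1 lower and 0 higher at an unadjusted p under 0.05, against 8.47% and 10.5% of all genes). Sdhc, a membrane anchor, read 11.83, 11.76 and 11.88 without Cre against 11.62, 11.46 and 11.56 with Cre, a difference of -0.28 ± 0.11 (adjusted p 0.23). Its other probe set differed by -0.26. The flavoprotein Sdha differed by -0.16 and the iron-sulfur subunit Sdhb by -0.15, the latter from a bright 13.32 ± 0.06 (SD, n = 3) to 13.17 ± 0.04. Of the other tested Sdha probe sets, the bright one differed by -0.21 and the dim one by 0.24 ± 0.27 (SE), with overlapping groups in the latter. The second anchor, Sdhd, differed by 0.10 ± 0.11 (SE, adjusted p 0.74), and by -0.07 in its other probe set.

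Complex III, the cytochrome bc1 complex, showed no separated groups in the brightest probe set of any gene. Of its 8 genes 6 were below 0, with a median of -0.045, and none passed in limma, also at an unadjusted p under 0.05. The lowest was the core protein gene Uqcrc2, at 13.11, 12.83 and 13.01 without Cre against 12.90, 12.77 and 12.90 with Cre (-0.12 ± 0.12, adjusted p 0.68). The Rieske iron-sulfur protein gene Uqcrfs1 differed by -0.09 ± 0.11 (adjusted p 0.74). The highest was Uqcrq at 0.01, whose sign was negative in its other probe sets, at -0.13 to -0.19, and in 1 of these all hearts with Cre were below all controls. Uqcrb, whose brightest probe set lay at the array maximum in all hearts, differed by 0.0034 there and by -0.15 in its other probe set.

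Complex V, the ATP synthase, had differences in a narrow band when each gene was read from its brightest probe set. Its 17 genes ranged from -0.12 to 0.08 with a median of -0.07, and 15 were below 0. None passed in limma, also at an unadjusted p under 0.05, and in 8 of the 17 all hearts with Cre were below all controls, a pattern of 12.9% of all tested genes. The catalytic subunit gene Atp5b read 13.41, 13.43 and 13.48 without Cre against 13.39, 13.32 and 13.32 with Cre, a difference of -0.10 ± 0.11 (adjusted p 0.73). Atp5a1, its partner in the catalytic head, differed by -0.10 ± 0.11 (0.70). The genes Atp5g1, Atp5g2 and Atp5g3 encode the same ring protein with different import sequences, and they differed by -0.09, -0.12 and -0.04. A dim second probe set of Atp5g1 went the other way, at 5.17 ± 0.16 (SD, n = 3) without Cre and 5.65 ± 0.35 in the hearts with it, a difference of 0.48 ± 0.18 (SE) with overlapping groups (adjusted p 0.20). Atp5c1, the central stalk gene and the brightest of complex V, differed by -0.05, and Atp5mpl, a small membrane subunit, was highest at 0.08 ± 0.12 (adjusted p 0.80), and at 0.0057 without no_Cre 2.

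Members with several tested probe sets gave a check within genes. Of 46 such genes, 33 were below 0 in all tested probe sets, 3 (Atp5d, Cox6a1 and Ndufb6) were above 0 in all, and 10 had both signs. Over the 156 tested probe sets, 137 were below 0 and the median was -0.09, against 53.5% below 0 among all probe sets. In 58 the groups were separated with lower values with Cre and in 2 with higher values, where all probe sets gave 12.1% and 11.4%. In limma 2 were lower and 0 higher at an adjusted p under 0.05, against 1.79% and 3.43% of all probe sets, and 8 and 2 at an unadjusted p under 0.05, against 8.39% and 9.27%.

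Of the genes that serve electron transport between the complexes, 3 fell in the hearts with Cre. All 16 tested genes of the list of cytochrome c, electron transfer flavoprotein and coenzyme Q synthesis were below 0, with a median of -0.32, and 3 were lower in limma against 2.04% of all genes, with 0 higher (9 and 0 at an unadjusted p under 0.05). Coq3, a methyltransferase of coenzyme Q synthesis, read 9.39, 9.32 and 9.40 without Cre against 8.89, 8.54 and 8.66 with Cre. It fell by 0.67 ± 0.13 (SE, limma adjusted p 0.017), to 62.7% of the signal without Cre, and its other probe set differed by -0.57 (adjusted p 0.084). Coq10a, which binds coenzyme Q and supports its function, read 10.48, 10.46 and 10.45 against 9.84, 9.76 and 10.06, and fell by 0.58 ± 0.12 (limma adjusted p 0.027). Etfb, which with Etfa takes electrons from fatty acid and amino acid dehydrogenases, read 12.77, 12.78 and 12.81 against 12.36, 12.29 and 12.35, and fell by 0.45 ± 0.11 (limma adjusted p 0.044).

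Leaving out 1 heart could undo the calls of these 3 genes, while the sizes of their differences changed less. The differences were then -0.77 to -0.60 for Coq3, -0.67 to -0.51 for Coq10a and -0.47 to -0.43 for Etfb. Without aMHC_Cre 2, which was the lowest heart for all of them, the adjusted p was 0.083 for Coq3, 0.12 for Coq10a and 0.16 for Etfb. Coq3 was also lost without aMHC_Cre 3, no_Cre 1 or no_Cre 3 (0.0503 to 0.058), Coq10a without any heart but aMHC_Cre 3, and Etfb whichever heart was left out (0.085 to 0.16). The partners Etfdh, which passes these electrons to coenzyme Q, and Etfa differed by -0.42 ± 0.12 (adjusted p 0.088) and -0.36 ± 0.11 (0.11). Of the other coenzyme Q genes, Pdss2 differed by -0.44, Coq8a by -0.40, Coq2 by -0.33 and Coq9 by -0.30, without passing. Cytochrome c (Cycs), very bright at 13.57 ± 0.07 (SD, n = 3) without Cre, differed by -0.03.

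Assembly factors, which build the complexes but do not stay in them, went both ways. Of 43 tested, 26 were below 0 and the median was -0.06, and none passed in limma (3 lower and 1 higher at an unadjusted p under 0.05). The lowest was Ttc19, a complex III factor, at -0.48 ± 0.13 (SE, adjusted p 0.073), but at -0.096 in its probe set of second highest mean (adjusted p 0.84). The highest was Cox19, a copper-related factor of complex IV, which read 9.52, 9.25 and 9.57 without Cre against 9.82, 9.91 and 10.27 with Cre (0.55 ± 0.15, adjusted p 0.079). Of subunits that the name rule does not reach, Cyc1, the cytochrome c1 of complex III, differed by 0.0026 and Ndufab1, the acyl carrier protein of complex I, by -0.09 ± 0.11 (adjusted p 0.74).

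Of 16 regulators of mitochondrial gene expression, 12 were below 0 with a median of -0.09, and none passed in limma (3 lower and 0 higher at an unadjusted p under 0.05). Tfb1m, a methyltransferase of mitochondrial ribosomal RNA, was lowest at -0.45 ± 0.11 (adjusted p 0.052), with 7.82, 7.75 and 7.76 against 7.39, 7.22 and 7.36. The coactivator gene Pprc1 was highest at 0.26 ± 0.19 (adjusted p 0.55), and at 0.071 without no_Cre 2. Of 18 genes for energy transfer, carriers and the mitochondrial membranes, 16 were below 0 with a median of -0.11, and none passed in limma (2 lower and 0 higher at an unadjusted p under 0.05). The acylcarnitine carrier Slc25a20 was lowest at -0.45 ± 0.15 (adjusted p 0.15) and the adenine nucleotide carrier Slc25a5 highest at 0.08 ± 0.11 (0.80), and at 0.0037 without aMHC_Cre 3.

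**Figure D4:**
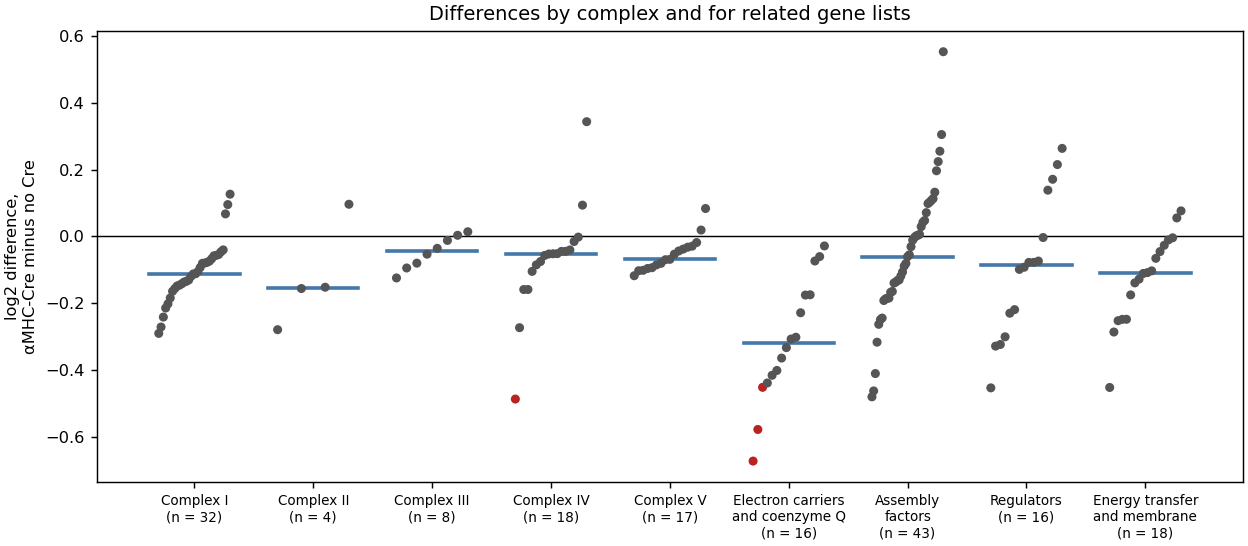
Log2 difference of each gene, hearts with Cre minus hearts without Cre, for the 5 complexes and for 4 lists of related genes, in order of size within each list. Each point is 1 gene, red points passed an adjusted p of 0.05 in limma, and blue bars are medians. The medians of the complexes lie between -0.15 and -0.045 and that of the electron carriers and coenzyme Q genes at -0.32.

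Markers of further cell types were also measured. Over all genes 4.2% were higher. Of 8 endothelial markers 1 (Vwf) was higher (0 without a filter), with summed signals of 12.12 to 12.38 without Cre and 12.45 to 12.49 with Cre. Of 5 tested atrial markers 3 (Myl7, Nppa and Kcnj5) were higher, with 12.12 to 12.61 without Cre and 14.10 to 14.16 with Cre. The difference was above 0 in 4 of these 5 and below 0 in 1. The atrial genes Sln, Bmp10 and Dkk3 were too dim to be tested. Smooth muscle and pericyte markers (0 of 7 in limma), macrophage markers (0 of 8), skeletal muscle markers (0 of 3), adipocyte markers (0 of 3) and red blood cell markers (0 of 3) did not pass in either direction. At an unadjusted p under 0.05 these 5 lists had 0, 1, 2, 0 and 0 lower and 1, 0, 1, 0 and 0 higher. Adipocytes and skeletal muscle also make Cox7a1 or Cox8b. The summed signal of the tested adipocyte markers was 9.46 to 9.65 without Cre against 9.43 to 9.51 with Cre, and that of the skeletal muscle markers 8.32 to 8.54 against 8.07 to 8.33, and their part in the results was not tested. The adipocyte genes Adipoq, Cidec and Ucp1 and the skeletal muscle genes Myh1, Myh4, Tnnt3, Pvalb and Actn3 were too dim to be tested.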

How the data were processed

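RNA of 6 hearts (3 per group) was measured on 1 Affymetrix array each. The authors deposited log2 values, which are PLIER signals per the submitters' processing notes. The base was inferred from the values, and how PLIER was set and whether arrays were normalized to each other is not stated. Of 45101 probe sets, 64 controls and the dimmest 40% of the rest by mean over all arrays (18015, mean under 5.16) were left out. Values were not normalized further.

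The comparison was fitted in R 4.3.3 by limma 3.58.1 (lmFit and eBayes, two-sided, without covariates), with Benjamini-Hochberg adjustment over 27022 probe sets at 0.05. Genes were named by the platform annotation from probe sets with 1 symbol (34945; 932 have several, 9160 none) and represented by their tested probe set with the highest mean. Ndufa4 and Ndufa4l2 were put with complex IV. Arrays give no counts, so sequencing depth does not enter the precision. Promoters are from RefSeq (GRCm38.p6). The fit was tested on simulated data with planted changes larger than any tested difference of the members, so detection at the sizes seen here was not tested.

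Named genes are the isoform pairs, members past the threshold, the lowest, highest and brightest gene of each complex and, per related list, genes past the threshold or else its lowest and highest. Others named only complete a count or a role. Members, lists and motifs were chosen with earlier results of these data known. Alternatives were other normalizations, filters, variance settings, array weights, offsets, probe set choices, thresholds, a replicate block and leaving out each heart.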

Additional observations from a re-analysis of the deposited data

How the results depend on the processing

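The sign of the median difference, over all members and for each complex, was the same under every alternative run, from -0.096 to -0.054 for all members. The count of member genes below 0 was 66 to 70, and the shifts of the 3 isoform pairs kept their sign, including when any heart was left out (-0.46 to -0.38 for Cox7a1, -0.28 to -0.18 for Cox8b and -0.23 to -0.053 for Cox6a2). The count of member genes that were lower (1) was 0 without a filter, with the replicate block or at an adjusted p under 0.01, 2 with the mean of probe sets, 3 with trend variance (added after seeing the data) and 5 with trend and robust variance. It was 0 to 0 when 1 heart was left out. For member probe sets (2) it was 0 without a filter or at 0.01, 1 with the block, 4 and 6 with these variance settings, and 0 to 1 when leaving out a heart. For the electron carriers and coenzyme Q genes (3) it was 0 without a filter or at 0.01, 1 with the block, 7 with 64 added to the unlogged signal and with both variance settings, and 0 to 1 without a heart.

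Assembly factors (0) had 1 lower with 16 added, a 60% filter or array weights and 3 with 64 added, quantile normalization, both variance settings or a threshold of 0.10. They had 1 higher with 16 or 64 added, both variance settings or 0.10. Regulators (0) had 1 lower under all of these and with the mean of probe sets, and energy transfer genes (0) had 2 lower with both variance settings. Fibroblast markers (7 higher) had 0 higher without a filter and 5 to 6 without a heart, and endothelial markers (1 higher) had 0 without a filter and 2 with 16 or 64 added, a 60% filter, the mean of probe sets, quantile normalization, both variance settings or a threshold of 0.10. The median of complex II (-0.15) was -0.097 with the mean of probe sets, -0.13 with quantile normalization, -0.18 with the probe set of second highest mean, and -0.17 to -0.13 without a heart. That of complex V (-0.07) was -0.042 with quantile normalization, and that of complex III (-0.045) was -0.093 with the probe set of second highest mean and -0.058 to -0.016 without a heart. Leaving out a heart or the filter changes how many hearts or probe sets enter the test, and other causes were not tested.

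Genes near 0 changed sign. Cyc1 was -0.012 with array weights and -0.000187 with median centring. Cox6b1 was 0.011 with the mean of probe sets, 0.013 with quantile normalization and 0.024 with the second probe set, where Ndufb5 was -0.11 and Sdhd -0.070. Uqcrq and Uqcrb were -0.11 and -0.072 with the mean and -0.19 and -0.15 with the second probe set. Without a heart the ranges were -0.029 to 0.034 for Cyc1, -0.014 to 0.010 for Cox6b1, -0.0093 to 0.18 for Cox6a1, -0.19 to 0.026 for Cox6b2, -0.0067 to 0.011 for Uqcrb and -0.016 to 0.036 for Uqcrq.

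The labels do not say that replicate numbers pair the hearts. The deviations of hearts with the same number correlated at -0.06, 0.21 and -0.19 across probe sets, and those of hearts with unlike numbers at -0.20 to 0.27. With 3 hearts per group these values cannot decide whether a number marks a pair. The counts with the replicate block (0 member genes, 1 member probe set, 1 carrier gene) treat it as one. With 3 hearts per group, the 95% interval of a member's difference reached a median of 0.25 to either side. It rests on a variance that limma drew towards a value common to all probe sets. Differences of the size of the medians were not detectable for single genes in that fit.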

Other observations

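Some probe sets of subunits carry several gene symbols and were not counted as members. The probe set shared by Ndufs6 and Ndufs6b read 12.53, 12.49 and 12.63 without Cre against 12.37, 12.34 and 12.44 with Cre, so all hearts with Cre were lower, by 0.16 on average (limma adjusted p 0.51). That of Ndufs5 and its pseudogene Ndufs5-ps differed by -0.19 (adjusted p 0.48), and the Ndufs5 probe set without that label by -0.11. The 2 probe sets shared by Ndufb4, Ndufb4b and Ndufb4c differed by -0.09 and -0.05 (adjusted p 0.77 and 0.88). Of the 2 shared by Ndufa11 and Ndufa11b, the brighter differed by 0.02 (adjusted p 0.96) and the dimmer, at 6.84, 6.86 and 6.53 without Cre against 7.07, 7.07 and 6.96 with Cre, by 0.29 (0.28).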
